A study of Arabidopsis thaliana with 10 samples.

Results

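The genes of the photosynthetic apparatus that lie on the plastid genome of Arabidopsis thaliana were followed in inflorescences, across an experiment in which ethanol vapour switched on the cytochrome P450 KLU (CYP78A5). They were chosen by name, as the probe sets that stand for 1 gene and carry a lower-case plastid symbol of the psa, psb, pet, ndh or atp series, or rbcL, ycf3 or ycf4. This gave 45 probe sets, 1 for each of 45 genes, of 22746 on the array. The RefSeq gene table (assembly TAIR10.1) places all 45 on the plastid genome and holds 46 symbols that fit the names. The missing symbol is ndhB, whose probe set names both copies of this gene in the inverted repeat and so failed the rule of 1 gene. The genes encode 15 products named for photosystem II, 6 subunits of the cytochrome b6f complex, 5 of photosystem I, 10 of the NADH dehydrogenase-like (NDH) complex and 6 of the ATP synthase, the large subunit of Rubisco and 2 assembly factors.

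All plants were klu-2 mutants with a transgene of the form 35S::AlcR-AlcA, in which the 35S promoter drives the ethanol-responsive regulator AlcR throughout the plant and AlcR then switches on the AlcA promoter. Behind AlcA stood either wild-type KLU (lines 3-1 and 4-3) or KLUmut, which encodes a mutant form of the protein (lines 1-5 and 3-2). Inflorescence tissue with young buds was pooled for each array. Wild-type KLU was sampled without vapour (0 min) and after 90 and 240 min of vapour, and mutant KLU after 90 and 240 min, with 1 array for each line, so that 10 arrays formed 5 groups of 2. The replicates of a group are its lines, so that p-values measure the spread between lines. An uninduced mutant array was not analysed here, and mutant KLU was compared with the wild-type lines at 0 min. Any comparison with 0 min joins induction, exposure to vapour and the time that passed, daily rhythm included. The daily cycle was 16 h light and 8 h dark, at 22 °C. All values are log2 intensities. Array medians of these processed values lay between 5.93 and 6.05, which does not measure the quality of single arrays. Each group had only 2 arrays, which limits precision.

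Plastids keep a small genome of bacterial origin, which encodes the core subunits of the photosynthetic complexes, while the nucleus encodes the antennae and many peripheral subunits. Plastid genes are mostly transcribed together in long units, by a plastid-encoded RNA polymerase and a nuclear-encoded one, and the transcripts are then cut, trimmed, spliced and edited. Stable poly(A) tails are rare on them, and target preparation for these arrays starts at poly(A) in the standard eukaryotic protocol that the labels cite. How this affects a plastid probe set was not tested. Green sepals, stems and young buds all contribute plastid RNA to an inflorescence sample, and fewer green cells and less plastid RNA per cell cannot be told apart in pooled tissue.

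Photosynthesis transcripts of the plastid were lower on induced arrays than on uninduced ones for most genes, with large differences between genes. The genes of 2 photosystem II core proteins, psbC and psbD, had the lowest values relative to uninduced plants, -2.59 and -2.33 on the log2 scale in the mean of the 4 induced groups. The photosystem I genes psaA, psaB and psaI, the assembly factor gene ycf3, and psbD, psbZ, atpI, ndhJ and ndhK fell with wild-type KLU at 1 or both times. With mutant KLU none of the 45 passed the test, with differences of the same direction in all of these. The adjustment runs over all probe sets of a comparison, so similar differences can get unlike adjusted p-values. A call with 1 construct alone is therefore not a difference between the constructs. The means of atpA, atpB, atpE, petB and psbM stayed within 0.3 log2 units of the uninduced mean in every group. Group means of the photosystem II genes psbE, psbF, psbL and psbJ were slightly above the uninduced mean in every induced group, without passing the test.

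**Figure D1:**
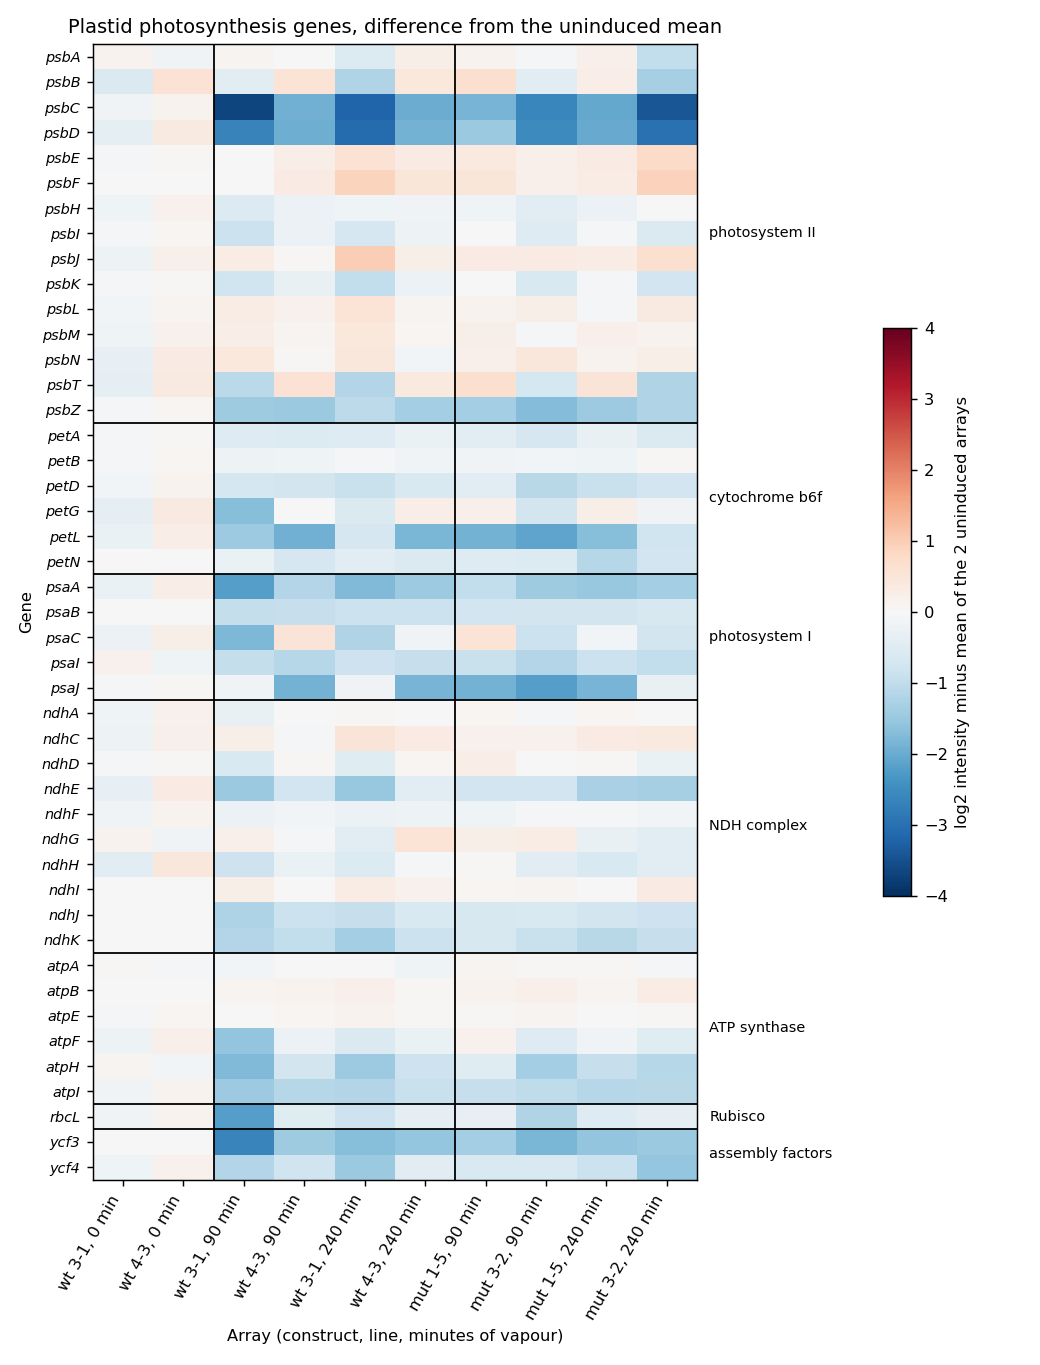
Difference of each of the 45 genes (rows, by complex) on each of the 10 arrays (columns) from the mean of the 2 uninduced arrays, as colour on a log2 scale. The rows of psbC and psbD are the darkest, and the rows of atpA, atpB and atpE stay pale on all arrays.

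In 28 of the 45 genes the mean was below the uninduced mean in all 4 induced groups, in 10 it was above in all 4, and in 7 the direction was mixed. Of all probe sets 27.8% were below in all 4 and 22% above in all 4. These 4 comparisons share the uninduced arrays, so a low or high uninduced value enters all of them. On the single arrays, 19 of the 45 genes lay below both uninduced arrays on all 8 induced arrays, where 6.03% of all probe sets did. In 1 gene, atpB, all 8 lay above, where 3.8% of all probe sets did. In limma's moderated test with Benjamini-Hochberg adjustment over all probe sets, 7 of the 45 genes fell with wild-type KLU at 90 min (0.514% of all probe sets fell) and 9 fell at 240 min (3.15%). No gene of the 45 rose at either time, where 1.11% and 3.67% of all probe sets rose. The 7 genes called at 90 min were all called at 240 min, with psaA and psbD in addition. Over the 45 genes the median log2 difference was -0.54 at 90 min and -0.40 at 240 min, against -0.02 over all probe sets at each time.

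Each count depended on single arrays. The count of 7 at 90 min became 0 when either uninduced array was left out, 0 when line 3-1 at 90 min was left out and 1 when line 4-3 was. Dropping a mutant array left 4 (either line, 90 min) or 3 (either line, 240 min). The count of 9 at 240 min became 0 when uninduced line 3-1 was dropped, 3 for uninduced line 4-3, 2 for induced line 3-1, 3 for induced line 4-3 and 5 for either mutant line at 240 min. The direction of each called gene was kept without any 1 array. A further fit took the transformed line as a replicate block, which compares each line with itself. It used the 6 wild-type arrays alone, so the block and the set of arrays changed together. In it 11 genes fell at 90 min, psbC, psbD, psaA and ndhE in addition to the 7. At 240 min 12 fell, with psbC, ndhE and petD in addition. In these fits 0.769% and 4.59% of all probe sets fell, 175 and 1045 against 117 and 716 in the fit without the block. None of the 45 rose with the block, where 1.58% and 4.2% of all probe sets did.

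**Figure D2:**
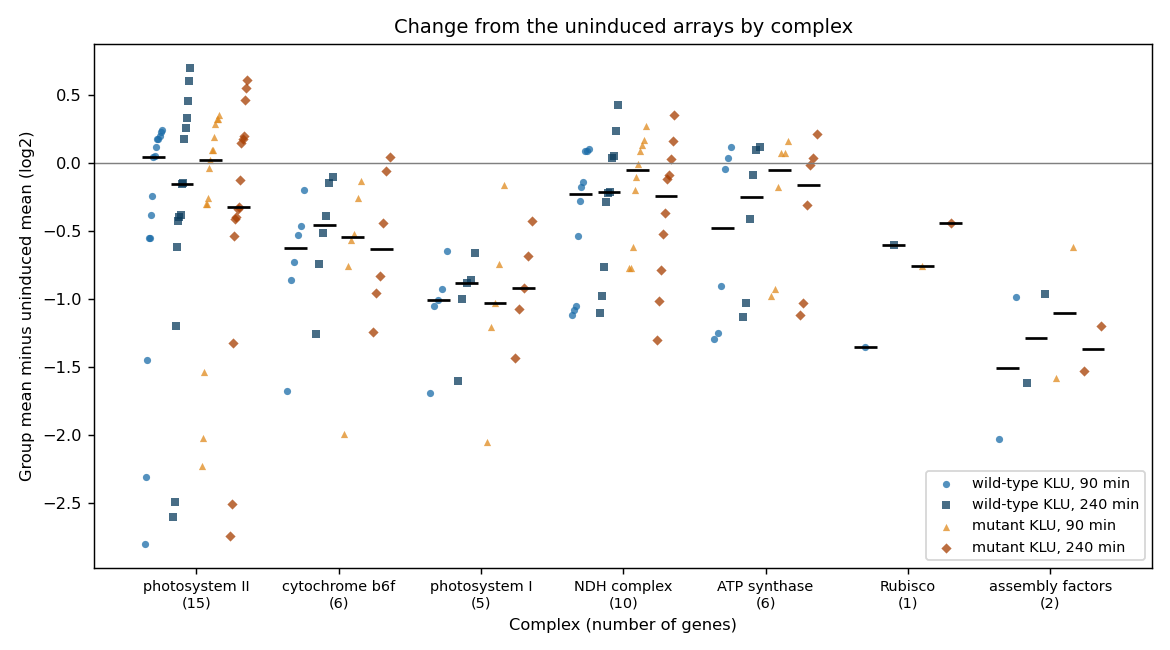
Group mean minus uninduced mean (log2) of each gene in the 4 induced groups, by complex, with the median as a black bar. All 5 photosystem I genes lie below 0 in every group, while photosystem II spreads from -2.80 to 0.70.

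The 15 psb genes spread the widest. With wild-type KLU their median difference was 0.04 at 90 min and -0.16 at 240 min, with 1 and then 2 genes called. Transcripts of psbC, which encodes an inner antenna protein of the photosystem II core, read 11.93 and 12.24 on the uninduced arrays of lines 3-1 and 4-3. With wild-type KLU they read 8.42 and 10.15 at 90 min, then 8.87 and 10.09 at 240 min, and 10.22 and 9.49 at 90 min and 10.04 and 8.65 at 240 min in mutant lines 1-5 and 3-2. All induced arrays lay below both uninduced ones by more than 1.5 log2 units, and the lines of each construct stood apart. The log2 difference with wild-type KLU was -2.80 (SE 0.69, adjusted p = 0.124) at 90 min and -2.61 (SE 0.69, adjusted p = 0.0676) at 240 min in limma's test, neither past the threshold. With the replicate block, where the standard error was 0.33, psbC fell at both times (adjusted p = 0.0217 and 0.0141).

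The reaction centre gene psbD, which lies upstream of psbC in the same transcription unit, read 10.32 and 11.01 without induction. It read 7.99 and 8.72, then 7.59 and 8.76, with wild-type KLU at 90 and 240 min in lines 3-1 and 4-3. In mutant lines 1-5 and 3-2 it read 9.18 and 8.11, then 8.64 and 7.67. Again no induced array reached the uninduced ones, and line 3-1 was below line 4-3 at every time, 0 min included. The fall at 240 min was 5.62-fold (log2 difference -2.49, SE 0.55, adjusted p = 0.0404 in limma's test), and at 90 min the difference was -2.31 (adjusted p = 0.113, and 0.00615 with the replicate block). In lines 3-1 and 4-3 the decrease was -2.33 and -2.29 at 90 min, and -2.73 and -2.25 at 240 min.

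The last gene of this unit is psbZ, the gene of a small photosystem II subunit, and the lines differed little. Its uninduced values were 11.21 and 11.36, and those of wild-type KLU 9.87 and 9.81 at 90 min, then 10.23 and 9.94 at 240 min. Values with mutant KLU were 9.94 and 9.56 at 90 min and 9.84 and 10.09 at 240 min. The fall with wild-type KLU was 2.72-fold at 90 min (log2 difference -1.45, SE 0.18, adjusted p = 0.0175), and the log2 difference at 240 min was -1.20 (adjusted p = 0.0124). With mutant KLU the log2 differences of -1.54 and -1.32 had adjusted p of 0.0584 and 0.0585 in limma's test, just short of the threshold, and trended and robust variances brought these to 0.031 and 0.0379.

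**Figure D3:**
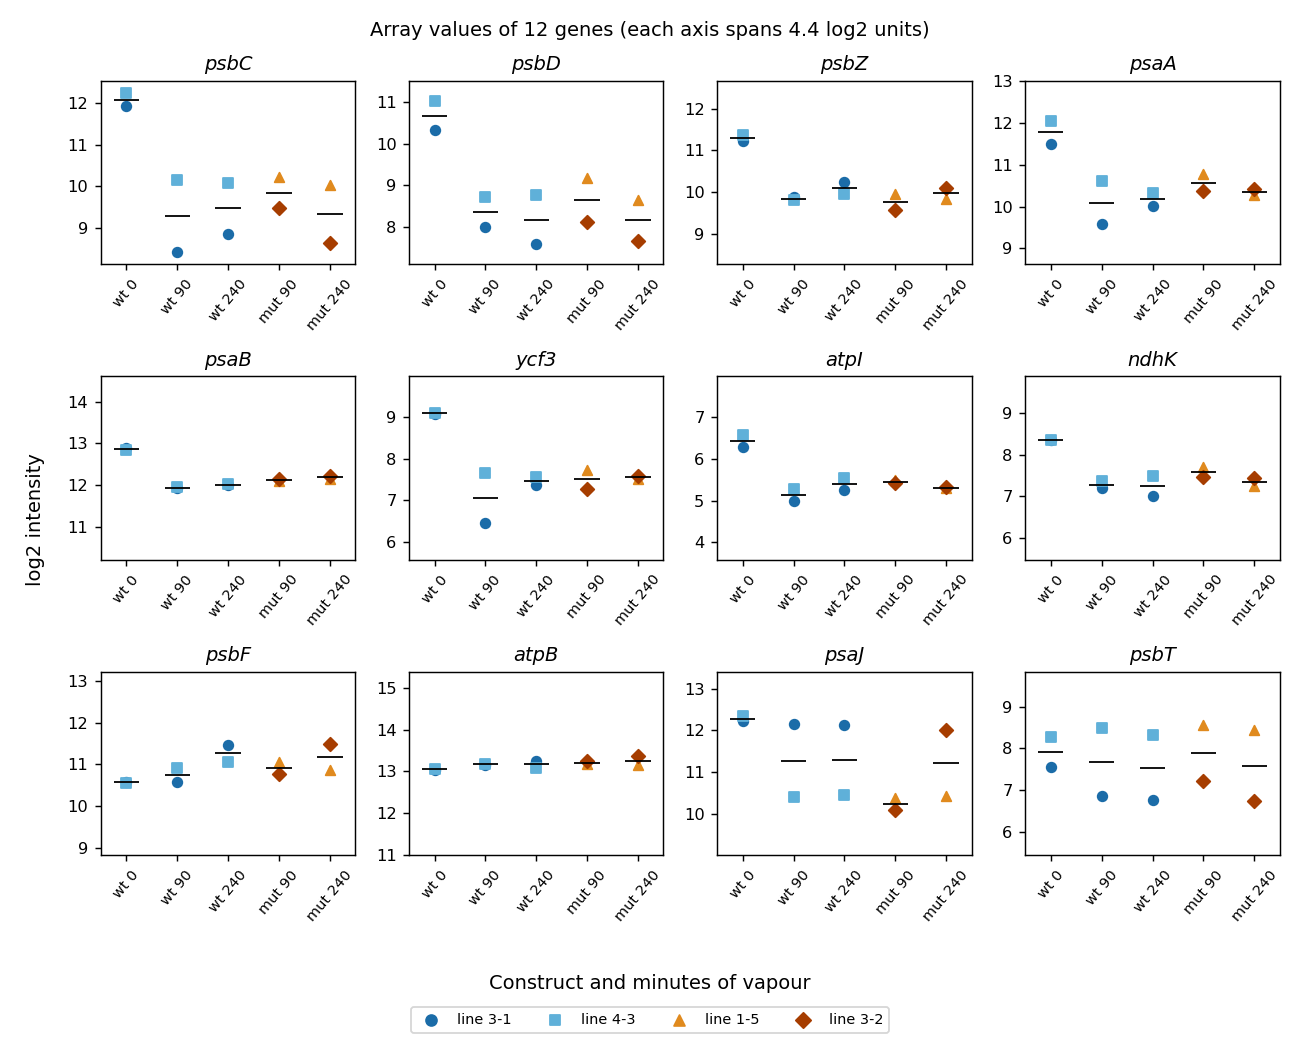
Log2 intensity of 12 genes on every array, by construct and time, with the line as symbol and the group mean as a bar. In psbC, psbD, psbZ, psaA, psaB, ycf3, atpI and ndhK all induced arrays lie below the uninduced ones, psbF and atpB stay near or above them, and psaJ and psbT separate the lines.

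Genes of another photosystem II unit, psbE, psbF, psbL and psbJ, did not share this direction. The first 2 encode the subunits of cytochrome b559, and the other 2 encode small subunits. For psbF the uninduced values were 10.58 and 10.55, and the induced ones ran from 10.58 to 11.49, with the highest at 240 min in mutant line 3-2 and wild-type line 3-1. With wild-type KLU its log2 difference was 0.18 and then 0.70 (SE 0.25, adjusted p = 0.916 and 0.146 in limma's test), and with mutant KLU 0.35 and then 0.61. The corresponding differences at 240 min with wild-type KLU were 0.46 for psbE, 0.61 for psbJ and 0.33 for psbL, none past the threshold. Within lines, psbF was higher by 0.89 in line 3-1 and 0.51 in line 4-3 at that time, and psbE by 0.64 and 0.27. The positive means of psbJ and psbL came from line 3-1, with 1.19 and 0.67 there against 0.02 and -0.01 in line 4-3. For psbM, a small subunit gene, and psbN, whose product acts in photosystem II assembly in tobacco, the lines had opposite signs. From 0 to 90 and 240 min psbN differed by 0.75 and 0.78 in line 3-1 and by -0.30 and -0.43 in line 4-3, and psbM by 0.43 and 0.58 against -0.04 and -0.07.

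The remaining psb genes differed less. The reaction centre gene psbA read 11.64 and 11.38 uninduced, and its induced arrays ran from 10.53 to 11.75, around the uninduced values. The mean of the 4 differences was -0.47 for psbK, -0.39 for psbI and -0.24 for psbH, genes of small subunits, and -0.20 for the inner antenna gene psbB and -0.25 for psbT. For none of these was a difference past the threshold.

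Photosystem I genes were all lower in the mean of every induced group, with a median difference of -1.01 and then -0.88 under the wild-type construct, and -1.03 and then -0.92 under the mutant one. Of the 5 genes, wild-type KLU gave 2 that fell at 90 min and 3 at 240 min. The pair psaA and psaB encode the reaction centre proteins. For psaB the uninduced arrays read 12.89 and 12.85, and the wild-type arrays 11.93 and 11.95 at 90 min and 12.00 and 12.02 at 240 min. Mutant KLU gave 12.11 and 12.15 at 90 min and 12.14 and 12.23 at 240 min. The 2 arrays of each group lay within 0.1 log2 units of each other, and the fall was 1.91-fold at 90 min (SE 0.11 on the log2 scale, adjusted p = 0.0151) and 1.82-fold at 240 min (adjusted p = 0.00807) in limma's test. At 240 min psaB stayed past the threshold in 9 of 10 fits that left out 1 array, with an adjusted p of at most 0.0609.

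For psaA the decrease was larger and more variable. It read 11.51 and 12.05 uninduced, 9.57 and 10.61 at 90 min, 10.02 and 10.33 at 240 min for wild-type KLU, and 10.79, 10.36, 10.27 and 10.42 on the mutant arrays. No induced array reached the uninduced range. The log2 difference was -1.69 at 90 min (adjusted p = 0.0702, and 0.0238 with the replicate block) and -1.60 at 240 min (SE 0.35, adjusted p = 0.0377 in limma's test). The gene next to psaA on the plastid genome is ycf3, which encodes an assembly factor of photosystem I. It read 9.07 and 9.10 without induction and 6.45 and 7.66 at 90 min, then 7.38 and 7.55 at 240 min, with wild-type KLU. The mutant arrays gave 7.74 and 7.27, then 7.52 and 7.59. Its fall with wild-type KLU was 4.08-fold at 90 min (SE 0.35 on the log2 scale, adjusted p = 0.0412) and 3.07-fold at 240 min (adjusted p = 0.0378), and the differences of -1.58 and -1.53 with mutant KLU did not pass the threshold (adjusted p = 0.308 and 0.204).

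Transcripts of psaI, a small photosystem I subunit, read 11.33 and 10.97 uninduced and between 9.99 and 10.31 on the induced arrays. The log2 difference was -1.05 (adjusted p = 0.0337) and -0.88 (adjusted p = 0.0256) with wild-type KLU at 90 and 240 min in limma's test. Downstream of psaI lies ycf4, which encodes a second assembly factor of photosystem I, with differences of -0.98 and -0.96 (adjusted p above the threshold at each time), and then petA, with -0.53 and -0.39. The iron-sulphur subunit gene psaC had mean differences between -0.67 and -0.16, with array values that overlapped the uninduced ones.

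For wild-type KLU the 6 cytochrome b6f genes had a median difference of -0.63 and then -0.45, and none was called at either time. In 4 of them, petA, petD, petL and petN, all 8 induced arrays lay below both uninduced ones. The small subunit gene petL had the largest difference, with 9.44 and 9.96 uninduced, then for wild-type KLU 8.26 and 7.78 at 90 min and 9.03 and 7.86 at 240 min. Its log2 difference was -1.68 (SE 0.44, adjusted p = 0.146 in limma's test) at 90 min. For petD, the gene of subunit IV, the 4 differences lay between -0.83 and -0.73, and for petA, the cytochrome f gene, between -0.56 and -0.39. The cytochrome b6 gene petB stayed within 0.2 log2 units of the uninduced mean in every group.

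Of the 10 NDH genes, ndhJ and ndhK fell at both times with wild-type KLU, and the others did not pass the threshold. The NDH complex passes electrons around photosystem I, and plastid ndh genes encode its membrane arm and connecting subunits. For ndhK the uninduced arrays read 8.36 and 8.35, against 7.19 and 7.36, then 7.00 and 7.50, in the wild-type lines and 7.70, 7.46, 7.25 and 7.43 in the mutant ones. All induced arrays were lower, and the fall was 2.11-fold and 2.15-fold at 90 and 240 min (SE 0.19 on the log2 scale, adjusted p = 0.0412 and 0.0183 in limma's test). For ndhJ it was 2.07-fold and 1.70-fold (adjusted p = 0.0304 and 0.0357). The other gene of their transcription unit, ndhC, read 9.69 and 10.08 uninduced and from 9.82 to 10.40 on the induced arrays, a mean difference of 0.26. At a mean difference of -1.04, ndhE also lay below both uninduced arrays on every induced array, with an adjusted p of 0.285 and 0.183 for wild-type KLU at the earlier and later time (0.035 and 0.0255 with the replicate block). The values of ndhA, ndhD, ndhF, ndhG and ndhI differed by a mean of -0.15 to 0.15, and ndhH by -0.39. The intensity of ndhF was between 2.79 and 3.18 on all arrays.

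Of the 6 ATP synthase genes atpI fell at both times, and all 8 induced arrays also lay below the uninduced ones in atpH. The gene atpI, for a subunit of the membrane channel, read 6.29 and 6.57 uninduced, 4.99 and 5.28, then 5.26 and 5.54, in the wild-type lines, and 5.50, 5.41, 5.29 and 5.33 in the mutant ones. It fell 2.45-fold at 90 min (SE 0.17 on the log2 scale, adjusted p = 0.0184) and 2.04-fold at 240 min (adjusted p = 0.0158) in limma's test. In both lines the decrease was the same to within 0.01 log2 units. For atpH, which encodes the subunit of the rotating membrane ring, the differences were -1.25 and -1.13 (adjusted p = 0.257 and 0.155), and for atpF, a stalk subunit, -0.91 and -0.41. With mutant KLU atpF was at -0.18 and -0.31, and its induced arrays overlapped the uninduced ones. The genes atpA and atpB, for the catalytic head, and atpE, for a subunit of the central stalk, stayed within 0.21 log2 units of the uninduced mean in every group. On single arrays these genes read between 12.23 and 13.36.

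The Rubisco large subunit gene rbcL read 9.44 and 9.74 uninduced. With wild-type KLU it read 7.38 in line 3-1 and 9.09 in line 4-3 at 90 min, then 8.77 and 9.20 at 240 min. The value of line 3-1 at 90 min was far below the other 7 induced arrays, which ran from 8.40 to 9.26. The log2 difference was -1.36 (SE 0.52, adjusted p = 0.355 in limma's test) at 90 min and -0.60 at 240 min.

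**Figure D4:**
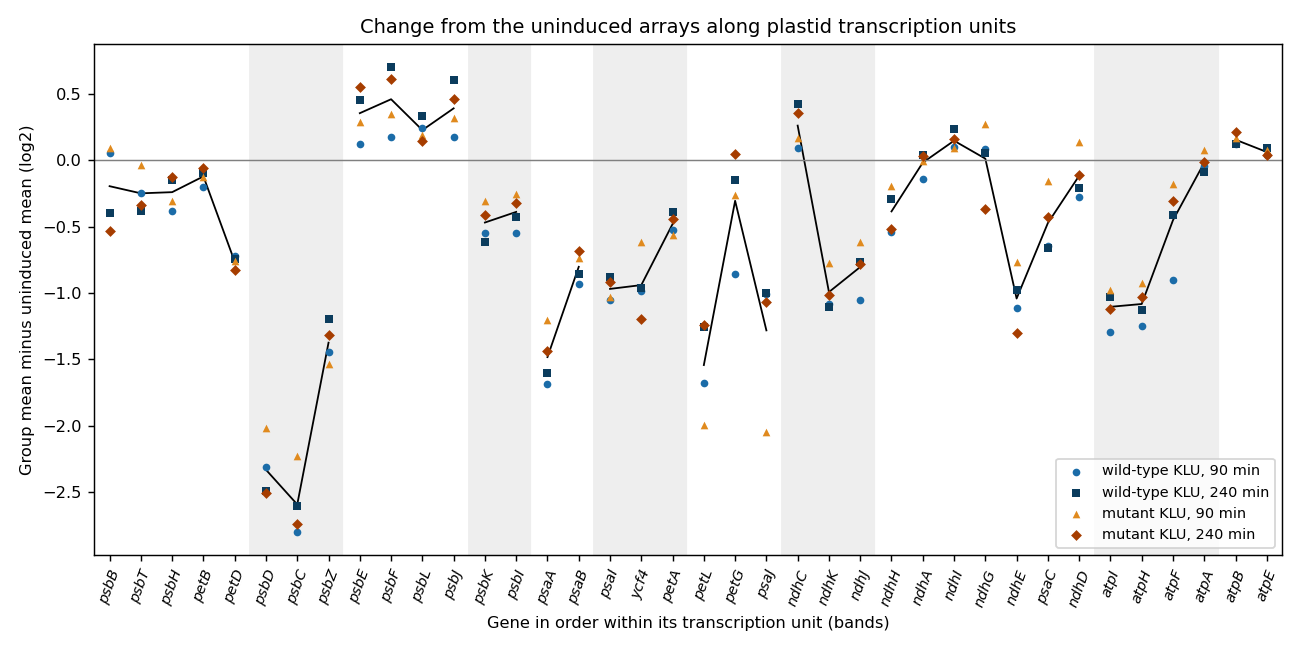
Group mean minus uninduced mean (log2) of the genes of 11 plastid transcription units, in gene order within each band, for the 4 induced groups, with a line through the mean of the 4. The unit of psbD, psbC and psbZ is lowest, that of psbE, psbF, psbL and psbJ lies above 0, and the unit from atpI to atpA climbs from -1.10 to -0.02.

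Known transcription units were used to set neighbouring genes side by side, as a description. In some units all genes had the same direction. The mean difference over the 4 induced groups was between -2.59 and -1.38 in the unit of psbD, psbC and psbZ, between -1.48 and -0.80 for psaA and psaB, and between 0.23 and 0.46 in the unit of psbE, psbF, psbL and psbJ. In others the genes differed. Along atpI, atpH, atpF and atpA the mean differences were -1.10, -1.08, -0.45 and -0.02. In the unit of ndhC, ndhK and ndhJ they were 0.26, -0.99 and -0.80. Within the unit from ndhH to ndhD, ndhE was at -1.04 between ndhG at 0.01 and psaC at -0.47. The unit of psbB, psbT, psbH, petB and petD was at -0.25 to -0.12 up to petB and at -0.77 at petD. Where 1 transcript carries several genes, the probe sets of the unit measured different stretches of it and of its processed products.

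The lines of a construct stood apart in several genes. Line 3-1 had lower values than line 4-3 in 36 of 45 genes at 0 min, in 30 at 90 min and in 27 at 240 min, and line 3-2 was lower than line 1-5 in 32 genes at 90 min and 22 at 240 min. The difference between lines 3-1 and 4-3 had a median of -0.23, -0.29 and -0.25 at the 3 times. At 90 min 17 genes were lower by at least 1 log2 unit than at 0 min in line 3-1 and 9 were in line 4-3. At 240 min the counts were 10 and 8. All these counts were made on the 45 genes alone, without the share over all probe sets. They do not show whether the line differences are particular to these genes.

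**Figure D5:**
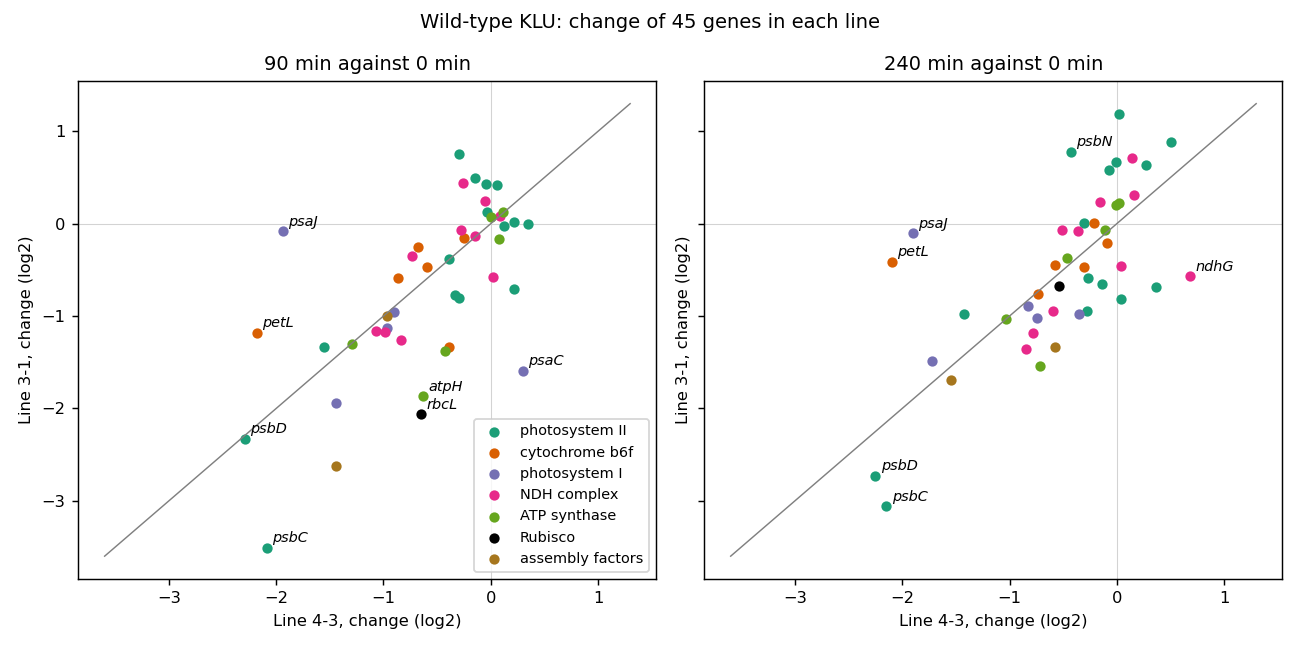
Change of the 45 genes from 0 min in line 3-1 (vertical) against line 4-3 (horizontal), both log2, at 90 min and 240 min, with equality as a grey line. Most genes lie near the line, while psaJ and petL were lower in line 4-3 alone or mostly, and psaC, rbcL and atpH lie below the line at 90 min.

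The widest gap between lines on any pair of arrays was that of psaC at 90 min, where line 3-1 read 7.24 and line 4-3 read 9.57. The lines also stood apart in psaJ, the gene of a small photosystem I subunit. It read 12.23 and 12.34 uninduced. In line 3-1 it stayed at 12.15 and 12.13 at 90 and 240 min, and in line 4-3 it read 10.40 and 10.44. The mutant arrays gave 10.39 in line 1-5 and 10.08 in line 3-2 at 90 min, then 10.43 and 12.00 at 240 min. The 8 induced arrays thus fell into 3 near the uninduced level and 5 about 2 log2 units below, with none between. Its neighbour petL was also highest on these 3 arrays among the induced ones, at 8.26, 9.03 and 8.91, against 7.59 to 8.00 on the others. The other gene of their unit, petG, was not, with 4.77 in line 3-1 at 90 min as its lowest value.

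The opposite order of lines was found for psbB and psbT, neighbours that were picked after their values were seen. Values of psbT were 7.56, 6.85 and 6.75 in line 3-1 at 0, 90 and 240 min against 8.28, 8.50 and 8.32 in line 4-3, and 7.22 and 6.73 in line 3-2 at 90 and 240 min against 8.55 and 8.44 in line 1-5. Line 3-1 was below line 4-3, and line 3-2 below line 1-5, at every time. The gap for psbB was -1.13, -0.97 and -1.64 between lines 3-1 and 4-3 and -1.12 and -1.58 between lines 3-2 and 1-5. The mean of pollen markers was higher in lines 3-1 and 3-2, where psbB and psbT were lower. In mutant lines 3-2 and 1-5 at 240 min the pollen means were nearly equal, at 5.21 and 5.14, while the psbB gap was -1.58. The mean of 13 pollen probe sets, of 38 genes listed, was 5.39, 6.05 and 5.46 in line 3-1 against 4.81, 5.04 and 5.05 in line 4-3, and 5.55 and 5.21 in line 3-2 against 5.13 and 5.14 in line 1-5. By group it ran from 4.81 to 5.39 uninduced, 5.04 to 6.05 and 5.05 to 5.46 with wild-type KLU at 90 and 240 min, and 5.13 to 5.55 and 5.14 to 5.21 with mutant KLU. The 13 probe sets include TUA1 and AGL30, which rose with wild-type KLU, so their rise enters these means. The part of pollen in the values of psbB and psbT was not tested.

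For mutant KLU compared with wild-type lines at 0 min, 0 of the 45 genes were called at each time in limma's test, where 0.022% and 0.0747% of all probe sets fell and 0.0176% and 0.0791% rose. The number of the 45 with an unadjusted p under 0.05 was 15 and 19, with 1501 and 1766 of all probe sets. An adjusted p also depends on the other probe sets of its comparison. For psbD at 240 min limma's unadjusted p was 0.00217 with mutant KLU and 0.00228 with wild-type KLU. The adjusted p was 0.178 with mutant KLU and 0.0404 with wild-type KLU. The median log2 difference of the 45 for mutant KLU was -0.26 at 90 min and -0.41 at 240 min. Without 1 array it ran from -0.54 to -0.02 at 90 min and from -0.57 to -0.17 at 240 min. Differences of psbC (-2.23 and -2.74), psbD (-2.02 and -2.51), ycf3 (-1.58 and -1.53) and psaA (-1.21 and -1.43) at 90 and 240 min lay beside -2.80 and -2.61, -2.31 and -2.49, -2.03 and -1.62, and -1.69 and -1.60 for wild-type KLU, in the same order.

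Setting the constructs against each other at equal exposure removes what vapour and elapsed time share between them. No gene of the 45 was called at 90 or 240 min, and 1 at each time had an unadjusted p under 0.05, against 1334 and 2947 of all probe sets. Over all probe sets 0% fell and 0.0044% rose at 90 min, and 0.413% fell and 0.721% rose at 240 min. The median difference over the 45 was -0.17 at 90 min and 0.02 at 240 min. For psbC it was -0.57 (SE 0.69) at 90 min and 0.14 at 240 min, and for psbD -0.29 (SE 0.55) and 0.02, errors that leave room for a difference of 1 log2 unit or more either way. For psaB, whose arrays were tight, it was -0.19 and -0.17 (SE 0.11). The largest difference was that of psaJ at 90 min, 1.04 (SE 0.76), which rests on line 3-1 alone. At 240 min petN, a small cytochrome b6f subunit gene, was at 0.44 (SE 0.18, adjusted p = 0.361).

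From 90 to 240 min no gene of the 45 was called with either construct, and 0% of all probe sets fell or rose. With wild-type KLU 31 genes were higher and 13 lower at 240 min, with a median of 0.10, and with mutant KLU 20 were higher and 25 lower, with a median of -0.07. At an unadjusted p under 0.05 there were 0 and 1 of the 45, and 2313 and 490 of all probe sets. The interaction of construct and time also called 0, with 0 of the 45 and 603 of all probe sets at an unadjusted p under 0.05. Its median was 0.19, and its largest values were -0.97 for psaJ (SE 1.07) and 0.71 for psbC (SE 0.98).

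A comparison of all induced groups with the uninduced arrays was added after the values were known, since both constructs had the same direction. In it 9 genes fell and 0 rose, where 0.892% of all probe sets fell and 0.91% rose. They were psaA, psaB, psaI, psbD, psbZ, ycf3, atpI, ndhJ and ndhK, the same 9 as with wild-type KLU at 240 min, whose arrays take part in both. The smallest adjusted p was 0.0116, for psbZ (log2 difference -1.38, SE 0.14) and psaB (-0.80, SE 0.09). With the line as a random block psbC fell as well (-2.59, adjusted p = 0.0255). This count became 0 when either uninduced array was dropped. It became 5 when wild-type line 3-1 at 240 min was dropped, 4 for line 4-3, 4 for mutant line 3-2 at 90 min, and at 240 min 4 for mutant line 1-5 and 3 for line 3-2.

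Other plastid genes were lower too in part. Of 24 further plastid-encoded probe sets, 10 lay below both uninduced arrays on all 8 induced arrays, where 6.03% of all probe sets did. In 4, all of ribosomal protein genes, all 8 lay above, where 3.8% of all probe sets did. Among the 24, wild-type KLU gave 6 that fell and 0 that rose at 90 min. At 240 min 6 fell and 1 rose, and the medians at the 2 times were -0.67 and -0.36. Ribosomal protein genes made up 5 of the falls at each time, with the largest decreases in rpl14 (-2.85 and -2.62 at 90 and 240 min), rpl16 (-3.25 and -2.68) and rpl20 (-2.71 and -2.35). With mutant KLU 3 of the 24 fell and 0 rose at each time, the same rpl14 (-2.66 and -2.38), rpl16 (-2.88 and -2.73) and rpl20 (-2.45 and -2.42), where 0 of the 45 photosynthesis genes were called. The gene that rose with wild-type KLU was rps18, by 0.90 at 240 min (adjusted p = 0.0203). Of the 4 RNA polymerase genes, whose products transcribe many photosynthesis genes, 1 fell at 90 min, rpoC2 (-1.36, adjusted p = 0.0306), and 0 at 240 min.

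The few nuclear genes of the apparatus that could be found by name gave no calls. Of the 22746 probe sets 8730 had no gene name here, so these few do not speak for all nuclear photosynthesis genes. Of 9 nuclear photosystem, antenna and ATP synthase probe sets 0 were called with wild-type KLU at either time, where the median was -0.10 and 0.05 and the range -0.36 to 0.22. Their mean ran from 10.54 to 10.87 over the 10 arrays. Of 3 markers of green tissue, of 22 listed, 0 were called, and their mean was 11.83 and 11.93 uninduced and between 11.38 and 11.86 on induced arrays. RCA, the Rubisco activase gene, had the largest difference of these, -0.58 and -0.49 (adjusted p = 0.412 and 0.305 in limma's test). Among 8 nuclear factors of plastid RNA processing, of 71 listed, 0 were called. Of 18 mitochondrion-encoded probe sets 0 were called at 90 min and 1 fell at 240 min, nad4, by 0.65 on the log2 scale (adjusted p = 0.0473), with medians of -0.08 and -0.11. With mutant KLU 0 were called, but 17 of the 18 were lower at each time, with medians of -0.26 and -0.28 beside -0.26 and -0.41 for the 45 photosynthesis genes. At an unadjusted p under 0.05 there were 6 and 4 of the 18, against 15 and 19 of the 45. In 4 of the 18 all 8 induced arrays lay below both uninduced ones, where 6.03% of all probe sets did. All 8 lay above in 0 of the 18, where 3.8% of all probe sets did. Of the flower bud list 2 of 18 genes had a named probe set, SPT and UFO, too few to check the tissue. Of the pollen list 2 rose with wild-type KLU at both times, the tubulin gene TUA1 (2.29 and 1.99) and AGL30 (1.77 and 1.73). With mutant KLU 0 of the list were called. Of its 13 probe sets 4 were lower with wild-type KLU at 90 min and 7 at 240 min, with medians of 0.305 and -0.01. Of 16 stress and heat genes 2 had a named probe set, and PDC2, a pyruvate decarboxylase gene, rose by 2.69 and 2.56 with wild-type KLU. Its differences with mutant KLU, 1.35 at 90 min and 2.275 at 240 min, had the same direction and did not pass the threshold.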

How the data were processed

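Each of the 10 arrays measured RNA of pooled inflorescences. The authors deposited log2 intensities from RMA, as the submitters' processing notes state, and these were used as they are. The RMA version is not given in the sources used here. After 64 control probe sets were left out, 22746 were tested. Names came from probe sets with 1 gene in GEO's platform table, which can be old, and chromosomes from RefSeq (TAIR10.1). Groups came from sample titles. The test was limma's (limma 3.58.1, R 4.3.3), fitted on the 10 arrays together with a mean for each group, two-sided, with Benjamini-Hochberg adjustment over all probe sets and a threshold of 0.05. No label gives a batch or scan date.

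The arrays are paired by transformed line, since a line recurs at each time of its construct. The line difference correlated across all probe sets between times at 0.633, 0.475 and 0.606 for wild-type KLU, and at 0.348 for the mutant. The wild-type values are for 0 with 90, 0 with 240 and 90 with 240 min, in that order. Over the plastid photosynthesis genes alone they were 0.354, 0.271 and 0.721, with 0.545 for the mutant. For these genes the pairing with the uninduced arrays was thus weaker than over all probe sets, and that between induced times was stronger. Line blocks were fixed within a construct and random between constructs (correlation 0.271). Other alternatives were the compared groups alone, quantile normalization, variances fitted with a trend and robustly, a filter to the brighter probe sets, a change of at least 1 log2 unit and leaving out each array. The fit was also run on simulated data with independent noise on each array. That simulation held no line effect, so it cannot tell how the pairing bears on the calls. Members, lists and tests were chosen with earlier results of these data known. Named genes are those past the threshold, up to 3 per complex with the largest mean change, and those that moved against their complex. Sequences were not used here. Figures were drawn with matplotlib 3.10.9.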

Additional observations from a re-analysis of the deposited data

How the results depend on the processing

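Of the alternatives other than leaving out 1 array, the following moved a count of called genes among the 45. With the line as a replicate block, fitted on the wild-type arrays alone, the count for wild-type KLU at 90 min rose from 7 to 11. The block moved no other count by over 1.5 times. In fits of the compared groups alone, which have fewer arrays to estimate the spread, wild-type KLU gave 0 at 90 min and 1 at 240 min. For mutant KLU the count of 0 became 1, psbZ, at each time with trended and robust variances or with a filter to the brighter probe sets, and with quantile normalization at 240 min. For all induced groups against uninduced the count of 9 was 3 with the wild-type construct alone and 5 with a change of at least 1 log2 unit. Leaving out 1 array gave 0 to 5 at 90 min and 0 to 10 at 240 min for wild-type KLU, 0 to 9 for all induced groups, and 0 for the 6 other comparisons and for the interaction. The median over the 45 then ran from -0.72 to -0.23 at 90 min and -0.62 to -0.20 at 240 min for wild-type KLU, -0.535 to -0.015 and -0.565 to -0.175 for mutant KLU, -0.31 to -0.02 and -0.07 to 0.05 between constructs, and -0.01 to 0.25 and -0.15 to 0.07 from 90 to 240 min with wild-type and mutant KLU. No called gene changed sign in any setting. With 2 arrays a group, a gene whose lines stand apart can miss the threshold at a large difference, as psbC did at -2.80 (SE 0.69) for wild-type KLU at 90 min.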
